A study of Mus musculus with 10 samples.

Results

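Protein tyrosine phosphatases were described in mouse melanomas with and without the cytoplasmic tyrosine kinase Fes. The genes were chosen by symbol. They comprise Acp1, the gene of the low molecular weight phosphatase, 17 non-receptor genes of the Ptpn series and 21 receptor genes of the Ptpr series, 39 of the 47643 genes in the deposited tables. Acp1 was included because its RNA was lower in Fes KO than in Fes WT tumours in these same libraries, so its difference is given as a description and without a test. The other 38 genes came in by name alone.

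RNA was sequenced from 10 melanomas, 5 of each genotype. The tumours labelled Fes KO carried Fes-/- and those labelled Fes WT carried Fes+/+. Both groups also carried the transgene Tyr::CreERT2/+ (a tamoxifen-activated Cre recombinase under the promoter of the pigment enzyme tyrosinase) and the oncogenic allele BRafV600E/+, and the back skin of the mice was treated with topical 4OH-Tamoxifen at 5 mM. The labels name neither the part of Fes that was removed nor the animal behind each tumour. All p-values therefore rest on the spread among these 10 samples, which may be partly technical.

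Tyrosine phosphatases remove the phosphate that tyrosine kinases such as Fes place on proteins, through a catalytic cysteine in a short signature loop. The classical enzymes are either cytoplasmic, with targeting domains around the catalytic domain, or receptors that span the membrane and carry adhesion-type ectodomains. Acp1 encodes a small cytoplasmic enzyme that shares the signature but not the overall fold of the classical family, and several members mark particular cells, such as Ptprc (CD45) on leukocytes and Ptprb (VE-PTP) on endothelium.

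Total counts were 13226783 to 16599120 per tumour. Fes itself was at 38.9 ± 11.5 CPM (counts scaled to the normalized library size) in Fes KO against 81.3 ± 12.7 CPM in Fes WT (SD, n = 5 each), and the groups did not overlap, but reads were still counted to Fes in every Fes KO tumour. Of the melanocyte lineage markers, Sox10 was at 743 ± 218 CPM in Fes KO against 637 ± 159 CPM in Fes WT, whereas Tyr, the gene whose promoter drives the Cre, ranged from 0.457 to 51.1 CPM. The melanocyte list had 8 tested markers, 7 with log2 fold changes (Fes KO minus Fes WT) above 0, against 52.4% of all tested genes. Their median was 1.95. The mean log2 CPM of the list was 6.51 in Fes KO 2, 2.49 to 4.39 in the remaining Fes KO tumours and 2.93 to 4.15 in Fes WT. At an unadjusted edgeR p below 0.05, 3 of the markers were higher (background 4.23%), and 0 passed an adjusted p below 0.05 (background 0.175%). Xist was at 670.1 CPM or more in Fes KO 1, Fes KO 2 and Fes WT 5 and at no more than 0.678 CPM elsewhere. Keratinocyte markers, of which 4 of 10 were tested and averaged, stood apart in Fes KO 2 (mean log2 CPM 8.33, against 0.60 to 4.17 in the other tumours). Skeletal muscle markers stood apart in Fes WT 3 (10.25, with 7.12 in Fes KO 2 and at most 5.13 elsewhere).

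Acp1 (ENSMUSG00000044573) lies on the minus strand of chromosome 12, at chr12:30893326-30911589 in GRCm38, and starts head to head with Sh3yl1, the gene of an SH3-domain protein that binds phosphoinositides. The GENCODE starts of the 2 genes are 79 bases apart. The sequence around the Acp1 start is shown because a single stretch of DNA holds both starts, while the log2 fold changes (Fes KO minus Fes WT) were -1.42 for Acp1 and -0.18 for Sh3yl1. The difference between these 2 values was not tested. The run of 300 bases is chr12:30911563-30911862 on the minus strand, from RefSeq on GRCm38.p6, printed 5′ to 3′. Capitals mark the bases from the RefSeq start of Sh3yl1, read on the opposite strand, to that of Acp1, which lie 57 bases apart.
Acp1 promoter: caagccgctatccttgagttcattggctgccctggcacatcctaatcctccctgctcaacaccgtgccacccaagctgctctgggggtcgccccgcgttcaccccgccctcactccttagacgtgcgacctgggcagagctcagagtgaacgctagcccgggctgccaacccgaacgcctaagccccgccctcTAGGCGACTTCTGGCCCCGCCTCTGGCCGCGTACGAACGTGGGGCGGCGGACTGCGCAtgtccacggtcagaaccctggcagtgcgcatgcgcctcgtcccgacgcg
GC content of this run was 67.0%, with 29 CpG dinucleotides. Searched on both strands, GGGCGG (the GC box) occurred 3 times and TATAAA did not occur. At least 1 GGGCGG was present in 35.7% and at least 1 TATAAA in 13.6% of the 32851 promoters of this length in the RefSeq table.

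Acp1 was lower in every Fes KO tumour than in every Fes WT tumour. Its level was 11.7, 12.04, 13.2, 13.01 and 8.82 CPM in Fes KO 1 to 5 and 32.6, 36.4, 34.5, 30.9 and 23.2 CPM in Fes WT 1 to 5. The tumours Fes KO 5 and Fes WT 5 were the lowest of their groups, and the lowest Fes WT tumour was still 1.76 times as high as the highest Fes KO tumour. Group means were 11.7 ± 1.76 CPM and 31.5 ± 5.09 CPM (SD, n = 5 each), so that the Fes KO mean was 37.3% of the Fes WT mean. The fitted log2 fold change was -1.42 with a standard error (SE) of 0.15, from 121 to 572 counts per tumour. Without the 3 Xist-expressing tumours it was -1.52, and over all alternatives to the analysis it stayed between -1.52 and -1.34.

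Counts of Acp1 could in principle be shared with copies of its sequence. The annotation holds 6 processed pseudogenes whose transcripts align to those of Acp1, of which Gm14388 (chr7:122442023-122442499) and Gm1866 on chromosome X were 99.2% identical over 477 bases. The 6 copies together had 15 counts over all 10 tumours, against 3318 for Acp1, which is 0.452% of it. The log2 ratio of the mean CPM was -1.42 both for Acp1 alone and for Acp1 summed with its copies, which with so few counts could hardly differ. Fam150b overlaps the 3′ end of Acp1 on the opposite strand by 529 bases and had 0 to 3 counts per tumour. How the counting treated strand and reads with several matches is not given in the sources used here, so reads from the overlap cannot be assigned to either gene. For the same reason, low counts of the nearly identical copies need not mean that their RNA was low.

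**Figure D1:**
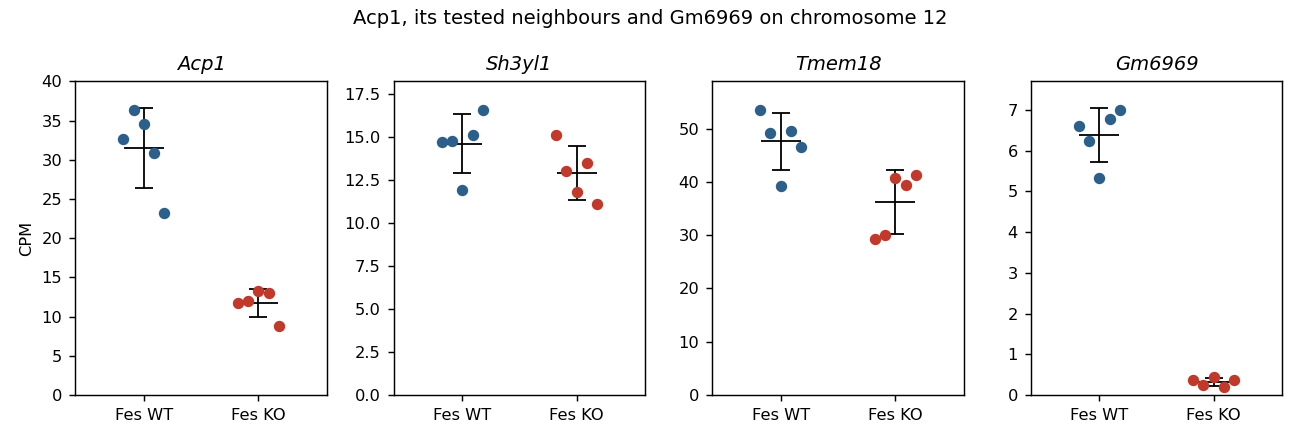
Level in CPM (vertical axes, from 0, scaled per gene) of Acp1, its tested neighbours Sh3yl1 and Tmem18, and the pseudogene Gm6969, with a point for each tumour, a bar for the mean and whiskers for the SD over 5 tumours. Acp1 (8.82 to 13.2 CPM in Fes KO, 23.2 to 36.4 CPM in Fes WT) and Gm6969 separate by genotype, whereas Sh3yl1 and Tmem18 overlap.

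Sh3yl1, across the shared promoter, was at 15.1, 13.03, 11.8, 13.5 and 11.1 CPM in Fes KO 1 to 5 and at 14.7, 14.8, 11.9, 15.1 and 16.6 CPM in Fes WT 1 to 5. The 2 groups overlapped over most of their range. Its log2 fold change was -0.18 (SE 0.13), with an interval of 2 SE on each side from -0.44 to 0.08 (edgeR quasi-likelihood test against no change, Benjamini-Hochberg adjusted p = 0.672). Tmem18, which encodes a nuclear membrane protein and is the tested neighbour on the other side, was at 29.3 to 41.4 CPM in Fes KO (36.2 ± 6.01) and at 39.2 to 53.6 CPM in Fes WT (47.7 ± 5.31). Only Fes WT 3, at 39.2 CPM, lay within the Fes KO range, and the log2 fold change was -0.40 (SE 0.13), which did not pass the adjustment over all genes (edgeR adjusted p = 0.363).

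In a wider window, 63 tested genes other than Acp1 lay within 10 Mb of it. Of these, 1 passed an edgeR adjusted p below 0.05 (1.59%, against 0.175% of all 14816 tested genes), and 14 had an unadjusted p below 0.05 (22.2%, against 9.62% of all tested genes). Their median log2 fold change was -0.08, with 36 below and 26 above 0 at 2 decimals. Within 1 Mb, 0 of 9 genes passed the adjusted threshold and 2 had an unadjusted p below 0.05. The gene that passed was Gm6969 (ENSMUSG00000066553, chr12:24638669-24639010), a processed pseudogene.

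Gm6969 was at 0.378, 0.249, 0.431, 0.196 and 0.364 CPM in Fes KO 1 to 5, from 3 to 7 counts each, and at 6.6, 6.24, 5.32, 6.77 and 7.01 CPM in Fes WT 1 to 5. The groups were far apart, with a log2 fold change of -4.27 (SE 0.24; edgeR adjusted p = 8.4e-05). Its sequence is 98.0% identical over 342 bases to Cox7a2l on chromosome 17, which encodes a respiratory supercomplex assembly factor. Cox7a2l was at 64.1 ± 5.53 CPM in Fes KO against 60.8 ± 4.11 CPM in Fes WT, a log2 fold change of 0.08 (SE 0.08; edgeR adjusted p = 0.791). Because the copy is nearly identical to this parent, reads could be split between them, and the value of Gm6969 is uncertain.

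**Figure D2:**
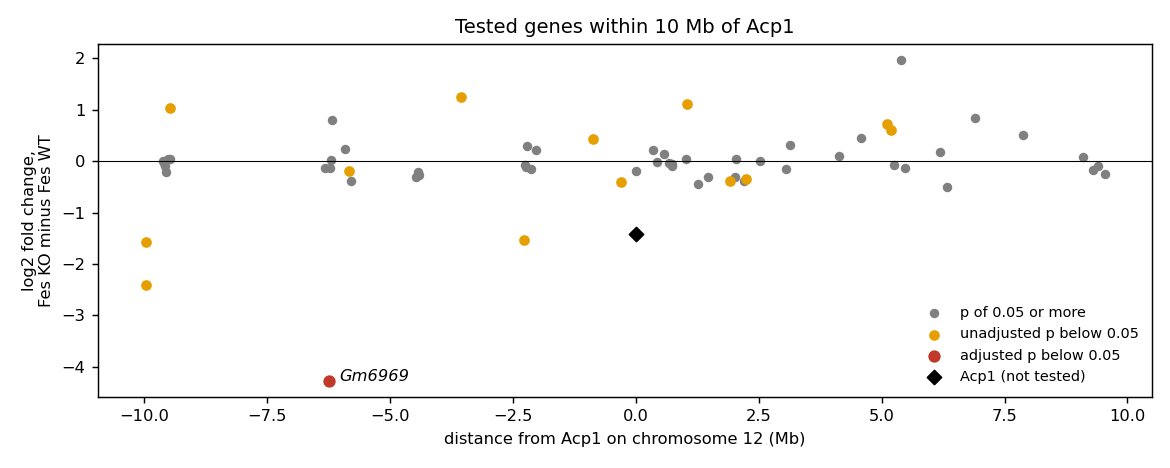
Log2 fold change (Fes KO minus Fes WT, vertical axis) of each tested gene within 10 Mb of Acp1 against its distance from Acp1 on chromosome 12 in Mb (horizontal axis). Colours separate genes by unadjusted and adjusted edgeR p. Gm6969 at -4.27 is the only point coloured as past the adjusted threshold. Acp1 at -1.42, chosen for its difference and shown without its p, has a marker of its own.

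The phosphatase genes that came in by name did not pass the test between the genotypes. Of the 39 members, 33 passed the filter on low counts and were tested, which are Acp1, 15 non-receptor and 17 receptor genes. Of the 32 besides Acp1, 0 passed an edgeR adjusted p below 0.05 (background 0.175%, of which 0.128% lower and 0.0472% higher in Fes KO), and their lowest adjusted p was 0.343. An unadjusted p below 0.05 was reached by 4 of the 32 (12.5%, against 9.62% of all tested genes). Ptpn14 and Ptpn4 were the 2 higher in Fes KO (background 4.23%), and Ptpn18 and Ptpn22 the 2 lower (background 5.39%). In 0 of the 32 did the groups fail to overlap, against 1.9% of all tested genes (1.11% with Fes KO below and 0.783% with Fes KO above). Log2 fold changes were above 0 in 17 and below 0 in 15, with a median of 0.02 (0.01 over all tested genes) and a range from -0.81 to 0.71. The median size of their fold changes, irrespective of sign, was 0.27, against 0.15 over all tested genes. The median SE of the 33 tested members was 0.26, about as large as this size. Genes of like SE were not compared, so the members cannot be called more changed than other genes.

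Of the members other than Acp1, 0 were called with other methods either. These were DESeq2 (1.78% of its tested genes called), limma-voom (0.776%), limma on the deposited log2 values (0.169%), and edgeR with median-ratio or upper quartile factors (0.162% each). The same held in edgeR with no filter on low counts (0.0632%), with a stricter filter (0.163%), with the replicate number as a block (0.027%), and at an adjusted p below 0.1 (0.331%). It held without the 3 Xist-expressing tumours (0.424%) and without Fes KO 2 and Fes WT 3 (0.135%). It also held with the macrophage marker level described below as a covariate (0.0405%) and with each tumour left out in turn, where the share of all tested genes called was 0.0663%, 0.227%, 0.0663%, 0.252% and 0.0795% without Fes KO 1 to 5 and 0.0999%, 0.0731%, 0.147%, 0.106% and 0.359% without Fes WT 1 to 5.

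**Figure D3:**
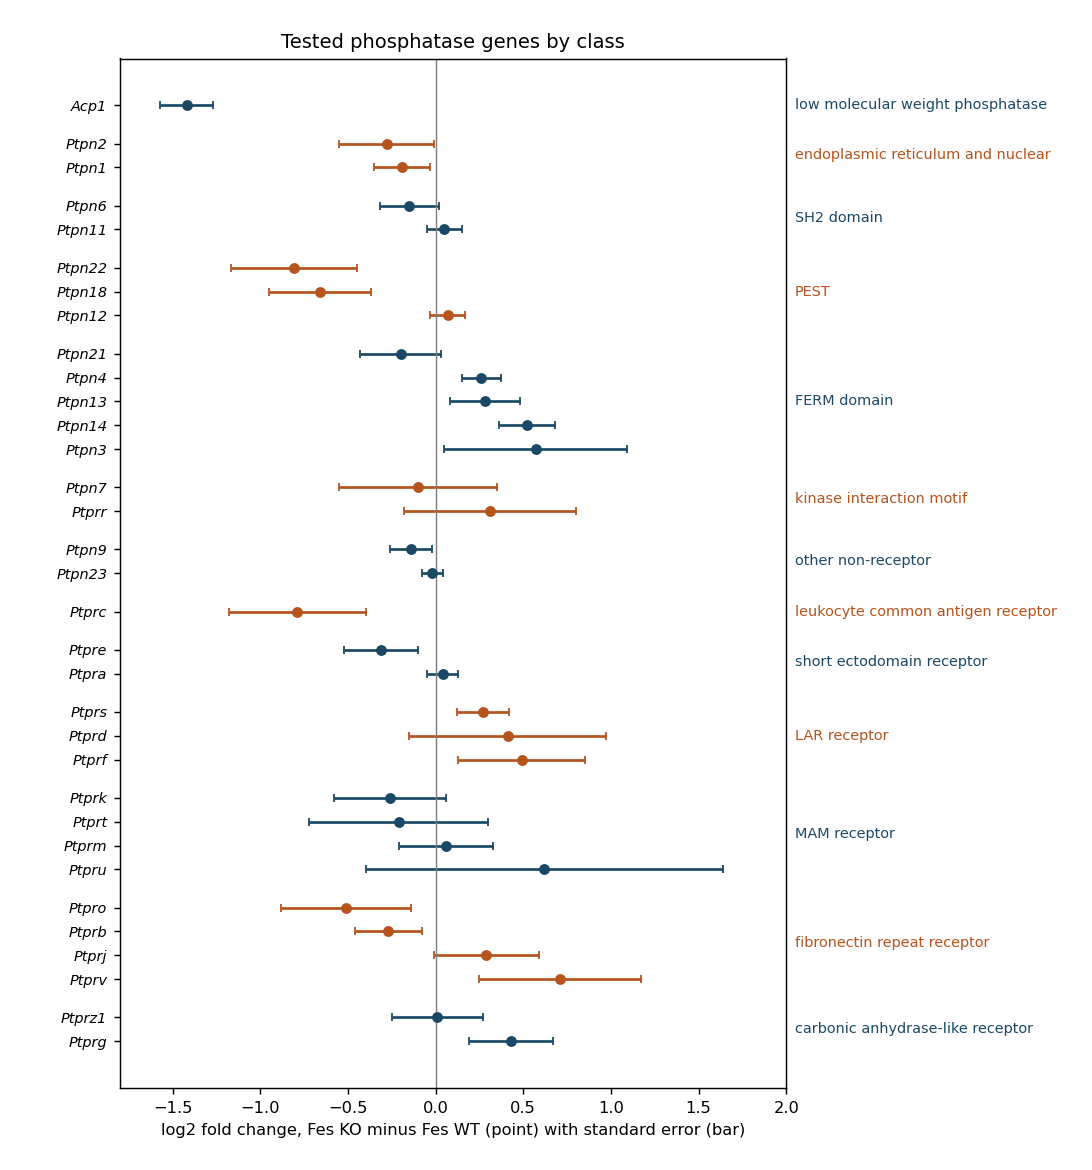
Log2 fold change (Fes KO minus Fes WT, horizontal axis) of the 33 tested phosphatase genes grouped by class, with points for the fitted value and bars for the SE. Acp1 at -1.42 lies outside the span of the other 32 genes, which runs from -0.81 to 0.71.

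Levels between genes were compared per exon length, as RPKM (CPM divided by the exon length in kilobases). Ptpn12 ranked first with a mean of 44.8 RPKM over the 10 tumours, ahead of Ptprz1 (34.1), Ptprs (30.7), Ptpn11 (28.4), Ptpn9 (23.9), Ptpn1 (23.6), Ptpn13 (23.1) and Ptprj (20.9). Acp1 ranked 18 of 39, at 3.23 RPKM in Fes KO against 8.67 RPKM in Fes WT. Among the genes least variable from tumour to tumour were Ptpn23, with a coefficient of variation of 3.71% over the 10 tumours, Ptpra (8.45%) and Ptpn11 (9.75%). Ptpru, at 153%, varied most of the tested genes. The 6 untested genes were Ptpn5, Ptpn20, Ptprh, Ptprn, Ptprn2 and Ptprq, with at most 17 counts in any tumour.

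**Figure D4:**
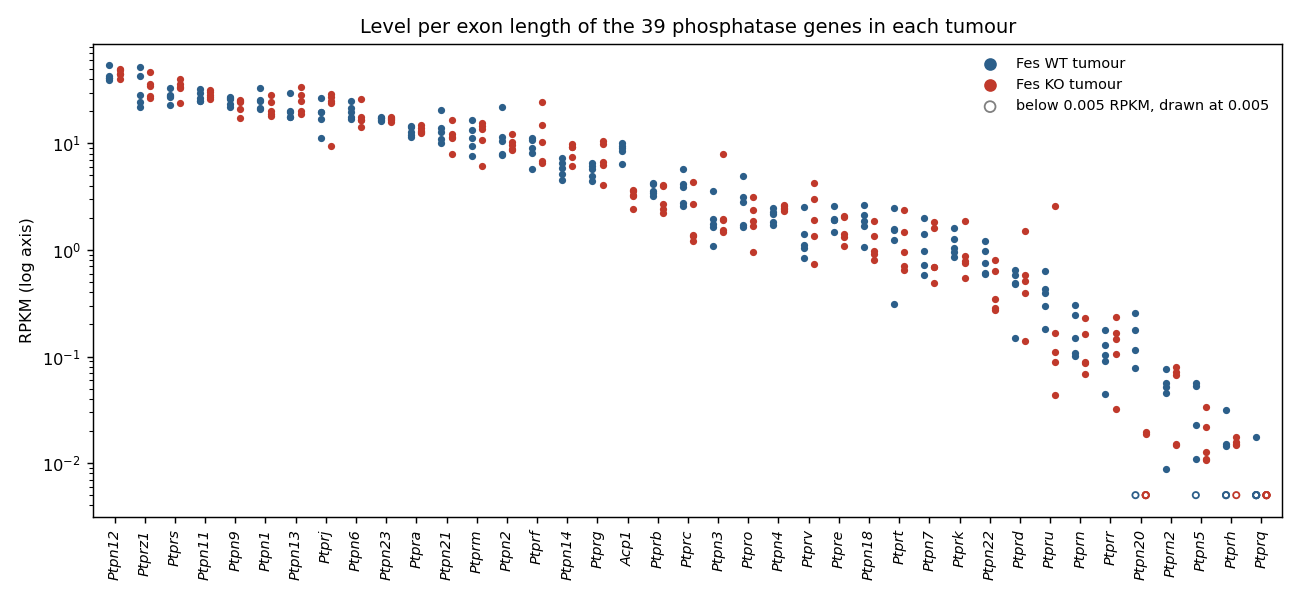
Level in RPKM (log axis) of the 39 phosphatase genes in each tumour, ordered by mean level, with a point per tumour coloured by genotype and open circles for values below 0.005 RPKM, drawn at that level. Acp1 is the gene in which the 2 colours separate completely, while in the other tested genes they overlap.

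The cytoplasmic enzymes with SH2 domains are Ptpn11 (SHP2), which is needed for signalling from receptor tyrosine kinases to Ras, and Ptpn6 (SHP1), which is mostly found in blood cells and acts below inhibitory receptors. Ptpn11 was at 226, 195, 212, 206 and 240.0 CPM in Fes KO 1 to 5 and at 187, 245, 188, 224 and 200.3 CPM in Fes WT 1 to 5. The groups covered the same range, and the log2 fold change was 0.05 (SE 0.10; interval -0.15 to 0.25; edgeR adjusted p = 0.912). Ptpn6 was at 39.9 to 73.2 CPM in Fes KO against 47.7 to 69.4 CPM in Fes WT, with a log2 fold change of -0.15 (SE 0.17; edgeR adjusted p = 0.808). Its highest value was that of Fes KO 4.

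Among the enzymes of the endoplasmic reticulum and nucleus, Ptpn1 (PTP1B) dephosphorylates the insulin receptor and JAK kinases. It was at 112, 135, 100.3, 157 and 105 CPM in Fes KO and at 137, 141, 118, 116 and 184 CPM in Fes WT. Tumours Fes KO 1, 3 and 5 lay below all Fes WT tumours, Fes KO 2 and 4 within them, and the log2 fold change was -0.19 (SE 0.16; edgeR adjusted p = 0.729). Its relative Ptpn2, a regulator of JAK and STAT signalling, was at 27.2 to 38.1 CPM in Fes KO against 24.3 to 69.2 CPM in Fes WT, with 69.2 in Fes WT 5 alone (log2 fold change -0.28, SE 0.27).

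The PEST family, named for sequences rich in proline, glutamate, serine and threonine, held members with and without a skew. Ptpn12, which acts on focal adhesion proteins, was at 158, 141, 158, 171 and 177 CPM in Fes KO and at 144, 138, 151, 189 and 145 CPM in Fes WT. Values of the 2 groups interleave, with a log2 fold change of 0.07 (SE 0.10; interval -0.14 to 0.28; edgeR adjusted p = 0.861). Ptpn18, which dephosphorylates the receptor HER2, was at 6.31, 8.73, 5.92, 12.03 and 5.17 CPM in Fes KO and at 13.7, 12.1, 10.8, 6.90 and 17.1 CPM in Fes WT. Tumours Fes KO 1, 3 and 5 lay below every Fes WT tumour, and the log2 fold change was -0.66 (SE 0.29; edgeR adjusted p = 0.508). Ptpn22 (Lyp), a restraint on signalling from antigen receptors in lymphocytes, was at 1.95, 5.49, 1.85, 4.32 and 2.33 CPM in Fes KO and at 5.16, 4.14, 6.56, 4.03 and 8.16 CPM in Fes WT. Again Fes KO 1, 3 and 5 lay below every Fes WT tumour, and the log2 fold change was -0.81 (SE 0.36; edgeR adjusted p = 0.512).

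FERM-domain phosphatases sit at the cell cortex and junctions, and 4 of the 5 had log2 fold changes above 0, with a median of 0.28. That of Ptpn3 was -0.24 without Fes KO 2 and -0.20 without the Xist-expressing tumours. Ptpn14, a binding partner and restraint of the Hippo effector YAP, had the lowest p of the members other than Acp1. It was at 125, 101, 124, 81.9 and 132 CPM in Fes KO and at 61.1, 78.7, 88.6, 69.1 and 96.95 CPM in Fes WT. All Fes KO tumours except Fes KO 4 lay above every Fes WT tumour. Means were 113 ± 20.8 and 78.9 ± 14.4 CPM, a log2 fold change of 0.52 (SE 0.16; edgeR adjusted p = 0.343). Over all alternatives to the analysis this fold change lay between 0.23 and 0.64. Ptpn4, which dampens T cell receptor signalling, was at 26.2, 29.4, 30.01, 27.7 and 28.1 CPM in Fes KO and at 25.5, 20.9, 19.4, 27.9 and 24.4 CPM in Fes WT. Fes WT 4 lay within the narrow Fes KO range and the other Fes WT tumours below it (log2 fold change 0.26, SE 0.11; edgeR adjusted p = 0.505).

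Ptpn13 (PTP-BL), the longest of the FERM-domain enzymes and a multi-PDZ scaffold, was the most abundant of that class per length. It was at 413, 228, 341, 246 and 302 CPM in Fes KO and at 215, 243, 236, 356 and 214 CPM in Fes WT. Fes WT 4 stood above the other Fes WT tumours, and the log2 fold change was 0.28 (SE 0.20; edgeR adjusted p = 0.672). Ptpn3 was at 10.7 to 14.2 CPM in 4 Fes KO tumours but at 57.4 CPM in Fes KO 2, with 7.84 to 25.9 CPM in Fes WT (log2 fold change 0.57, SE 0.52). Ptpn21 was at 62.8 to 132 CPM in Fes KO against 78.9 to 164 CPM in Fes WT (log2 fold change -0.20, SE 0.23).

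Phosphatases with a kinase interaction motif dock on MAP kinases and dephosphorylate them. Of the 3, Ptpn7 (HePTP), mainly a lymphoid enzyme, had the highest level, at 4.22, 9.73, 2.96, 11.1 and 4.23 CPM in Fes KO and 8.56, 4.39, 12.1, 3.54 and 5.95 CPM in Fes WT. High and low tumours occurred in both groups (log2 fold change -0.10, SE 0.45; edgeR adjusted p = 0.961). Ptpn7 starts 106 bases from Ptprv on the opposite strand of chromosome 1. Ptprr was at 0.189 to 1.38 CPM in all tumours, and Ptpn5 (STEP), a brain enzyme, had at most 5 counts per tumour.

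The remaining non-receptor genes are Ptpn9 (MEG2), a phosphatase of secretory vesicles, Ptpn23 (HD-PTP), a catalytically weak endosomal sorting protein, and Ptpn20. Ptpn9 was at 97.2, 81.01, 114, 119.5 and 117 CPM in Fes KO and at 122, 128, 103, 108 and 123 CPM in Fes WT. Tumours Fes KO 1 and 2 lay below the Fes WT range (log2 fold change -0.14, SE 0.12; edgeR adjusted p = 0.725). Ptpn23 was at 88.3 to 99.9 CPM in Fes KO against 92.1 to 99.3 CPM in Fes WT, with a log2 fold change of -0.02 (SE 0.06) and the narrowest interval of the members, -0.13 to 0.10. Ptpn20 had 1, 0, 0, 1 and 0 counts in Fes KO and 9, 6, 4, 14 and 0 counts in Fes WT, too few for the test.

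Ptprc (CD45), which activates Src family kinases in leukocytes, was the receptor with the fold change farthest below 0. It was at 22.1, 49.8, 24.7, 80.3 and 25.1 CPM in Fes KO 1 to 5 and at 76.4, 47.1, 71.1, 50.8 and 105 CPM in Fes WT 1 to 5. Tumours Fes KO 1, 3 and 5 lay below every Fes WT tumour, whereas Fes KO 4 exceeded all but Fes WT 5. Means were 40.4 ± 24.97 and 70.1 ± 23.2 CPM, a log2 fold change of -0.79 (SE 0.39; edgeR adjusted p = 0.557). In bulk tumours, fewer cells of a type and less RNA per cell cannot be told apart.

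Of the receptors with short ectodomains, Ptpra, an activator of Src, was at 161, 137, 152, 138 and 142 CPM in Fes KO and at 156, 130.2, 125, 140.0 and 158 CPM in Fes WT. These values interleave (log2 fold change 0.04, SE 0.09; interval -0.14 to 0.22; edgeR adjusted p = 0.913). Its relative Ptpre, abundant in hematopoietic cells, was at 14.3, 20.8, 11.1, 21.1 and 13.5 CPM in Fes KO and at 26.5, 19.3, 19.7, 14.95 and 19.6 CPM in Fes WT. Here too Fes KO 1, 3 and 5 lay below the Fes WT range (log2 fold change -0.31, SE 0.21; edgeR adjusted p = 0.664).

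The LAR receptors Ptprs, Ptprd and Ptprf bind heparan sulfate proteoglycans and synaptic adhesion proteins, and all 3 had log2 fold changes above 0, with a median of 0.41. The sign of Ptprd turned without Fes KO 1 (-0.21), Ptprf was at 0.08 without Fes KO 2, and both were below 0 without the Xist-expressing tumours (-0.41 and -0.22). Ptprs was at 607, 356, 499, 512 and 542 CPM in Fes KO and at 427, 416, 343, 407 and 495 CPM in Fes WT. All Fes KO tumours except Fes KO 2 lay above every Fes WT tumour, and the log2 fold change was 0.27 (SE 0.15; interval -0.03 to 0.57; edgeR adjusted p = 0.595). Ptprf (LAR) reached 226 CPM in Fes KO 2, above the 59.5 to 135 CPM of the remaining Fes KO tumours and the 52.1 to 103 CPM of Fes WT (log2 fold change 0.49, SE 0.36). Ptprd was at 3.21 to 34.05 CPM in Fes KO against 3.43 to 14.8 CPM in Fes WT (0.41, SE 0.56).

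MAM-domain receptors mediate homophilic adhesion. Ptprm, the most abundant of them, was at 128, 54.6, 121, 137 and 94.1 CPM in Fes KO and at 117, 83.1, 67.5, 146 and 98.8 CPM in Fes WT. Its lowest values were those of Fes KO 2 and Fes WT 3 (log2 fold change 0.06, SE 0.27; edgeR adjusted p = 0.957). Ptpru was at 0.308 to 1.17 CPM in 4 Fes KO tumours, all below the Fes WT range of 1.28 to 4.50 CPM, and at 18.3 CPM in Fes KO 2. Its fitted log2 fold change was 0.62 (SE 1.02) with Fes KO 2 and -1.94 without it. Ptprk was also highest in Fes KO 2, at 24.8 CPM (7.22 to 11.6 CPM in the remaining Fes KO tumours), and Ptprt ranged from 3.94 to 30.9 CPM over all tumours.

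Receptors with fibronectin repeats include the growth-restraining Ptprj (DEP-1) and the endothelial Ptprb. Ptprj was at 210.0, 79.5, 227, 202 and 242 CPM in Fes KO and at 223, 142, 93.9, 166 and 163 CPM in Fes WT. The value in Fes KO 2 was the lowest of all tumours and Fes WT 3 the next (log2 fold change 0.29, SE 0.30; edgeR adjusted p = 0.79). Ptprb, which lies 591 bases downstream of Ptprr on chromosome 10, was at 29.4 to 54.2 CPM in Fes KO against 42.5 to 57.03 CPM in Fes WT (-0.27, SE 0.19). Over the 10 tumours, its level had r = 0.52 with the endothelial marker list (permutation p = 0.12, adjusted p = 0.377 over 198 member and list pairs). Ptprv, a receptor described in bone and testis of rodents, was at 5.17 to 29.9 CPM in Fes KO against 5.81 to 17.7 CPM in Fes WT (0.71, SE 0.46; edgeR adjusted p = 0.646; 0.35 without Fes KO 1 and -0.12 without the Xist-expressing tumours), and Ptpro, a podocyte and neuronal receptor, was at 6.49 to 21.2 and 11.01 to 33.4 CPM (-0.51, SE 0.37).

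The receptors with a carbonic anhydrase-like domain are Ptprz1, the receptor of pleiotrophin and a marker of glial and neural crest lineages, and Ptprg. Ptprz1 was at 660.5, 378, 509.9, 494 and 393 CPM in Fes KO and at 613, 314, 407, 739.9 and 349 CPM in Fes WT, among the highest CPM of the members. The spread within each group was wide, and means of 487 ± 113 and 484 ± 184 CPM gave a log2 fold change of 0.01 (SE 0.26; interval -0.51 to 0.53; edgeR adjusted p = 0.997). Ptprg was at 44.96 to 117 CPM in Fes KO against 49.1 to 72.03 CPM in Fes WT (0.43, SE 0.24; edgeR adjusted p = 0.593). Of the secretory granule receptors, whose catalytic domains lack activity toward tyrosine, Ptprn (IA-2) was at 0.378, 0.686, 0.37, 0.981 and 0.292 CPM in Fes KO and 0.457, 0.636, 1.05, 0.427 and 1.30 CPM in Fes WT, and Ptprn2 had at most 11 counts per tumour.

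The tumours that were low in Ptprc, Ptpn18, Ptpn22 and Ptpre were low in macrophage markers as well. All 18 macrophage markers were tested and 18 of 18 had log2 fold changes below 0, with a median of -0.81, although 0 passed the adjusted threshold in edgeR (background 0.175%). Of the 18, 9 were lower at an unadjusted p below 0.05 (background 5.39%), and over all tested genes 52.4% of the fold changes were above 0. Summed marker levels were 1167 to 2968 CPM in Fes KO against 1977 to 4311 CPM in Fes WT, and every marker was detected. The mean log2 CPM of the list was 5.33, 6.35, 5.25, 6.73 and 5.31 in Fes KO 1 to 5 and 7.14, 6.49, 6.65, 6.10 and 6.88 in Fes WT 1 to 5. The values of Fes KO 1, 3 and 5 were thus apart from those of the other 7 tumours, so that relations are also given among those 7. The T and NK cell list, with 12 of 14 markers tested and 12 of these below 0, was at 5.42 to 27.5 CPM summed in Fes KO and 16.4 to 47.6 CPM in Fes WT. Of the B and plasma cell markers, 3 of 7 were tested and all 3 were below 0 (median -1.49), with 1.85 to 35.4 CPM summed in Fes KO and 8.85 to 48.5 CPM in Fes WT. Of the 6 neutrophil markers, 5 were tested and 4 of these were below 0 (median -1.12), with 31.97 to 153 and 28.3 to 191 CPM summed. The part of these cell types in the phosphatase values was not tested.

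Over the 10 tumours, log2 CPM of Ptprc had Pearson r = 0.95 and Spearman rho = 0.88 with the macrophage list (permutation adjusted p = 0.0145 and 0.0896 over the 198 pairs). For Ptpn18, r was 0.93 and rho 0.94 (permutation adjusted p = 0.00792 and 0.0475), and for Ptpre, r was 0.93 and rho 0.88 (0.0139 and 0.0896). Among the 7 tumours richer in macrophage markers, r was 0.77 for Ptprc, 0.86 for Ptpn18 and 0.83 for Ptpre. Leaving out Fes KO 3 and Fes KO 5, the tumours farthest from the median list level, r was 0.92, 0.88 and 0.88. Ptpn22 had r = 0.90 and rho = 0.82 (permutation adjusted p = 0.0384 and 0.23), 0.82 without those tumours, and 0.46 among the 7, so that its relation rests largely on the 3 low tumours. With the list mean as a covariate in edgeR, the log2 fold changes were -0.01 for Ptprc, -0.03 for Ptpn18, 0.18 for Ptpre and -0.14 for Ptpn22. The next largest r with the macrophage list were -0.85 for Ptpn13, -0.80 for Ptpn14 and 0.80 for Ptpn1. These did not pass (permutation adjusted p = 0.054, 0.0847 and 0.0672). Among the 7 tumours their r was -0.77, -0.19 and 0.53.

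For Acp1, r with the macrophage list was 0.66 over the 10 tumours, 0.16 for the deviations from the group means and 0.10 among the 7 tumours richer in macrophage markers. Macrophage levels of Fes KO 2 and Fes KO 4, at 6.35 and 6.73, fell inside the span of the Fes WT tumours (6.10 to 7.14), and Acp1 was at 12.04 and 13.01 CPM in these tumours, with 8.82 to 13.2 CPM over Fes KO 1, 3 and 5. With the list mean as a covariate, the log2 fold change of Acp1 was -1.37. Macrophage markers were themselves lower in Fes KO (18 of 18 below 0), so genotype and macrophage content cannot be fully separated in these tumours. The part of macrophage content in the difference of Acp1 was not tested.

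**Figure D5:**
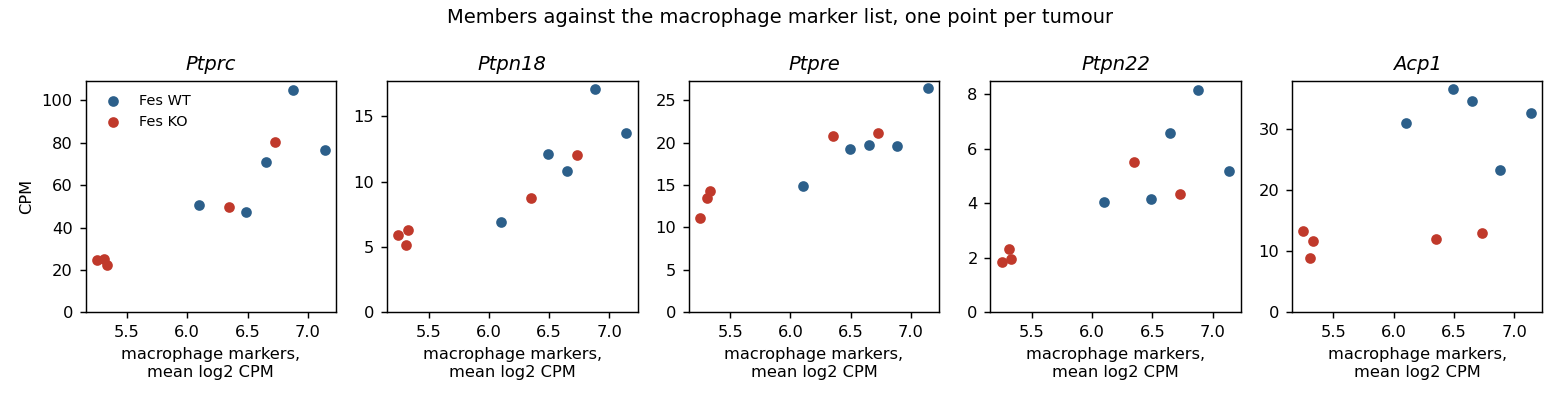
Level in CPM (vertical axes, from 0) of Ptprc, Ptpn18, Ptpre, Ptpn22 and Acp1 against the mean log2 CPM of 18 macrophage markers (horizontal axes), with a point per tumour coloured by genotype. Levels of the first 4 genes are higher in tumours with more of the markers in both genotypes, and Acp1 is at 8.82 to 13.2 CPM in the Fes KO tumours and 23.2 to 36.4 CPM in the Fes WT tumours.

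Of the pairs of members with the other lists, 3 with keratinocyte and 3 with Schwann cell markers passed a permutation adjusted p below 0.05, and 0 with endothelial, fibroblast or melanocyte markers. The share of all tested genes with such relations was not computed. These counts, and the 4 pairs with macrophage markers, therefore cannot be read as particular to phosphatases. The keratinocyte level rests on the 4 tested of its 10 markers, all 4 with log2 fold changes above 0 (median 2.93). These fold changes rest on Fes KO 2. The mean log2 CPM of the list was 8.33 in that tumour, 0.60 to 1.43 in the remaining Fes KO tumours and 1.41 to 4.17 in Fes WT. Ptpru had r = 0.87 with the keratinocyte list (permutation adjusted p = 0.0384; rho = 0.78, adjusted p = 0.23), and 0.71 without Fes KO 2 and Fes WT 3. Ptprj had r = -0.87 with the keratinocyte list and 0.90 with the Schwann cell list (both permutation adjusted p = 0.0384), which were -0.49 and 0.58 without those tumours. The corresponding values of Ptprm were -0.85 and 0.86, and -0.46 and 0.48 without them, and Ptpn3 had r = -0.88 with the Schwann cell list and -0.46 without them. With single tumours left out in turn, none of these 6 pairs passed in more than 3 of the 10 runs. In those runs r with the keratinocyte list was 0.70 to 0.93 for Ptpru, -0.90 to -0.80 for Ptprj and -0.90 to -0.74 for Ptprm. With the Schwann cell list it was 0.82 to 0.95 for Ptprj, 0.74 to 0.97 for Ptprm and -0.91 to -0.77 for Ptpn3. All 6 relations, that of Ptpru included, were weaker without both Fes KO 2 and Fes WT 3, and so rest in part on these tumours.

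Genes that work with the members were taken from lists chosen with earlier results of these data known, and 0 genes of any of the 4 lists passed the adjusted threshold in edgeR (background 0.175%). The counts at an unadjusted p below 0.05 that follow stand beside 4.23% higher and 5.39% lower over all tested genes. Of 37 tested phosphotyrosine and dual-specificity phosphatases outside the family, 1 was higher and 5 were lower at an unadjusted p below 0.05, with a median log2 fold change of 0.01. The lowest p values were those of Cdc25a, an activator of cyclin-dependent kinases, at 23.8 ± 3.97 CPM in Fes KO against 17.9 ± 1.52 CPM in Fes WT (0.41, SE 0.13; edgeR adjusted p = 0.345), and of the cofilin phosphatase Ssh2, at 58.5 ± 8.96 and 76.9 ± 11.5 CPM (-0.40, SE 0.13; edgeR adjusted p = 0.38).

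Among 28 tested docking and adaptor genes of SHP1 and SHP2, 1 was higher and 2 were lower at an unadjusted p below 0.05 (backgrounds 4.23% and 5.39%), with a median of -0.11. They were led by Siglece, an inhibitory receptor of myeloid cells, at 3.77 ± 1.39 CPM in Fes KO against 7.53 ± 2.55 CPM in Fes WT (-0.99, SE 0.33; edgeR adjusted p = 0.373), and by Mpzl1 (PZR), a membrane glycoprotein that binds SHP2, at 294 ± 107 and 185 ± 44.8 CPM (0.66, SE 0.26; edgeR adjusted p = 0.456). Of 35 tested ligands and partners of the receptors, 3 were higher and 0 lower at an unadjusted p below 0.05 (backgrounds 4.23% and 5.39%), with a median of 0.09.

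Slitrk3, a synaptic adhesion partner of Ptprd, was at 66.8, 18.8, 93.9, 58.97 and 95.6 CPM in Fes KO and at 10.6, 10.9, 10.4, 28.2 and 41.2 CPM in Fes WT. All Fes KO tumours except Fes KO 2 lay above the Fes WT range (1.72, SE 0.52; edgeR adjusted p = 0.328). Sdc1, a heparan sulfate proteoglycan, was at 194 ± 167 and 86.9 ± 25.4 CPM (1.16, SE 0.46; edgeR adjusted p = 0.468), with 489 CPM in Fes KO 2. Of 18 reported substrates and partners of Acp1, 2 were higher and 1, the targeted gene Fes itself, was lower at an unadjusted p below 0.05 (backgrounds 4.23% and 5.39%), with a median of 0.04. The gene with the lowest p was Fes (-1.06, SE 0.19; edgeR adjusted p = 0.0846), followed by Cav1, the caveolar coat gene, at 666 ± 287 CPM in Fes KO against 346 ± 137 CPM in Fes WT (0.94, SE 0.37; edgeR adjusted p = 0.462).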

How the data were processed

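RNA-seq counts per gene and normalized log2 values of the same genes, both deposited by the authors, were used for 5 Fes KO and 5 Fes WT tumours, grouped and numbered by sample title. Per the submitters' processing notes, the builds were mm10 and GRCm38, and the tools FastQC, STAR (2.51b) and Subread (1.4.6). From the values, the deposited log2 table holds size-factor-scaled counts with 1 added before the logarithm. The test was that of edgeR (version 4.0.16, R version 4.3.3; TMM factors, filterByExpr, quasi-likelihood test, 2-sided, Benjamini-Hochberg over 14816 genes, called at adjusted p below 0.05). Positions and exon lengths came from GENCODE M21, promoters from RefSeq, and copies from blastn version 2.17.0+. Marker lists were averaged as log2 CPM (prior count 2), and their correlations were tested with 100000 permutations, 2-sided.

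The phosphatase genes, the lists and the tests were chosen with earlier results of these data known. Per-tumour values are given for Acp1, for members with an unadjusted p below 0.05 and for the most abundant member of each class per length; those of Ptprc, Ptpre, Ptpn20, Sh3yl1, Tmem18, Gm6969 and Slitrk3 were added as neighbours or after their values were seen. Of each pathway list, the 2 genes with the lowest p are named. A further allele that both groups carried is not reported here. The tables of protein sequence needed for a catalytic signature search were not used here.

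On simulated counts of 14671 genes, the edgeR procedure recovered 55% of 2-fold and 93% of 4-fold changes, and 10 of its 158 calls were false. The changed genes were drawn only from those above a minimum mean CPM. Recovery was therefore not measured for members at low levels, such as Ptpn22, Ptpru and Ptprr.

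Alternatives comprised DESeq2 version 1.42.0, limma version 3.58.1 (voom, and the deposited log2 values), further normalization factors and filters, the replicate number as a block, a macrophage covariate and tumours left out.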

Additional observations from a re-analysis of the deposited data

Results flagged for a closer look

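In 8 of the 66 groups of 5 tumours examined (33 tested phosphatase genes in each genotype), a single tumour lay far from the other 4. The cut-off used is passed by about 1 in 20 groups of independent, normally distributed values. The 66 groups reuse the same 10 tumours, and the share over all tested genes was not computed. An excess in phosphatase genes therefore cannot be read from this count. Of the 8, 4 were in Fes KO 2, the keratinocyte-rich tumour: Ptpru at 18.3 CPM (others 0.308 to 1.17), Ptpn3 at 57.4 CPM (10.7 to 14.2) and Ptprk at 24.8 CPM (7.22 to 11.6) were high, and Ptprj at 79.5 CPM (202 to 242) was low. Keratinocyte markers were at a mean log2 CPM of 8.33 in this tumour (0.60 to 1.43 in Fes KO 1, 3, 4 and 5). Other lists set it apart too. Among the Fes KO tumours it was the highest in adipocyte (5.71), skeletal muscle (7.12) and melanocyte (6.51) markers and the lowest in Schwann cell markers (6.52). The part of any of these cell types in the phosphatase values was not tested.

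Ptpn6 was at 73.2 CPM in Fes KO 4 (others 39.9 to 49.1), the Fes KO tumour with the highest macrophage marker level, 6.73. In Fes WT, Ptpn12 at 189 CPM (138 to 151) and Ptpn13 at 356 CPM (214 to 243) were high in Fes WT 4, and Ptpn2 at 69.2 CPM (24.3 to 35.7) was high in Fes WT 5.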

How the results depend on the processing

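The log2 fold change of Acp1, which was chosen for its difference, was -1.52 to -1.34 over the 21 alternatives. Among the 32 tested members other than Acp1, 0 were past the threshold in the fit reported and in every alternative. Acp1 was chosen from these same libraries, so its passing the threshold in other settings is not counted as support. With the macrophage covariate it was at -1.37 and did not pass. Genes called in all numbered 26, and 300 with DESeq2, 115 with limma-voom, 4 with the replicate number as a block, 64 without the Xist-expressing tumours, 6 with the macrophage covariate, 49 at an adjusted p below 0.1, and 10 to 54 without single tumours (10 without Fes KO 1 or Fes KO 3, 54 without Fes WT 5). Called genes within 10 Mb of Acp1 numbered 1, and 3 with DESeq2, 2 with limma-voom, 0 within 5 Mb, and 1 to 2 without single tumours. The 10 marker relations became 3 to 16 without single tumours. Same-numbered tumours did not deviate together over all tested genes (r from -0.378 to 0.172), which gives no sign of pairing by number but cannot exclude it. Under the replicate block Acp1 was at -1.42.

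The sign of uncalled members turned in some settings, for causes that were not tested. Ptpru was at -1.78 with limma-voom, -0.92 with limma on the deposited log2 values, -1.15 with the replicate block, -1.63 without the Xist-expressing tumours and -1.89 without Fes KO 2 and Fes WT 3, where Ptpn7 was at 0.0044. Without the Xist-expressing tumours, Ptpn6 was at 0.03, Ptpn2 at 0.10, Ptprd at -0.41, Ptpn9 at 0.02, Ptprf at -0.22, Ptpn3 at -0.20, Ptprz1 at -0.15 and Ptprv at -0.12. With the macrophage covariate, Ptpn6 was at 0.13, Ptprk 0.22, Ptpn2 0.04, Ptpn1 0.13, Ptprd -0.07, Ptpn12 -0.02, Ptpn7 0.77, Ptprm -0.05, Ptpn13 -0.15, Ptpn23 0.02, Ptpre 0.18, Ptpn11 -0.09 and Ptprz1 -0.16. Without single tumours, log2 fold changes ran from -0.40 to 0.07 for Ptpn2, -0.0007 to 0.08 for Ptpra, -0.21 to 0.66 for Ptprd, -1.94 to 0.94 for Ptpru, -0.38 to 0.20 for Ptpn7, -0.06 to 0.22 for Ptprm, -0.04 to 0.01 for Ptpn23, -0.24 to 0.88 for Ptpn3, -0.59 to 0.07 for Ptprt and -0.13 to 0.21 for Ptprz1. At this depth and with 5 tumours a group, changes of 2-fold can be missed.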
